A study of Capra hircus with 12 samples.

Results

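The step from E45 to E55 in the embryonic skin of the Inner Mongolia cashmere goat was described from 6 RNA-seq libraries, 3 embryos at E45 and 3 at E55 (the number is the embryonic day), out of 12 libraries in the series. The remaining RNA-seq libraries came from 3 embryos at E65, and the 3 small RNA libraries were pools of the embryos of a stage. According to the study's methods relatives were avoided, no treatment is named, and the skin came from the mid flank with no separation of its layers described. The labels name embryonic skin and the study's introduction skin epidermis, so that which layers a library holds is not settled by these sources. Each embryo gave 1 strand-specific library of polyadenylated RNA, and the value of a gene is its RPKM, its reads scaled by the length of the gene and by the size of the library. All genes whose RPKM averaged 0.1 or more in the 9 RNA-seq libraries were compared, which kept 16604 of the 20486 genes listed.

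At these ages the flank skin changes from a simple covering epithelium over loose mesenchyme to a layered epidermis over a dermis, around the time when the primary hair follicles begin to form. A follicle starts as a placode, a local thickening of the epidermis, which exchanges WNT, EDA, BMP, FGF and Hedgehog signals with a condensate of dermal cells beneath it. Keratin genes mark the epidermal cells as they stratify, while collagen genes mark the dermis. None of these genes could be looked up by name. The table gives each gene as an identifier of a gene model with its chromosome, and 0 of the 20486 identifiers matched the goat gene table used. The skin label could therefore not be checked against its defining markers, and genes were described by identifier, chromosome, kind of gene model and level.

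E45-1 and E55-2 lay nearer to each other than to the embryos of their own stage. Each embryo was placed on the line from the E45 mean to the E55 mean, where 0 is the E45 mean and 1 the E55 mean, both computed without that embryo, over log2(RPKM + 0.1) of the 16604 genes. The E45 embryos lay at 0.549 for E45-1, -0.0954 for E45-2 and 0.290 for E45-3. The E55 embryos lay at 1.10 for E55-1, 0.393 for E55-2 and 0.884 for E55-3. E45-1 thus had a higher position than E55-2, but each E45 or E55 embryo has a line of its own. The mean of the other embryos of its stage enters both the line and the position. By construction this draws E45 embryos above 0 and E55 embryos below 1, so the order of these positions is only a description. Whether the likeness of E45-1 and E55-2 comes from the tissue taken, the age of the embryos or their labels cannot be told from the files. All E55 vs. E45 values take both embryos as labelled. The nearest library to E45-1 was E55-2 and the reverse, at a Euclidean distance of 89.1, while the E45 embryos were 98.5 to 144 apart from each other. E55-1 was nearest to an embryo of the next stage, E65-3, at 88.1. The 3 embryos of E65 lay together at 1.08 to 1.14 on the line through the full E45 and E55 means, which was drawn without them.

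**Figure D1:**
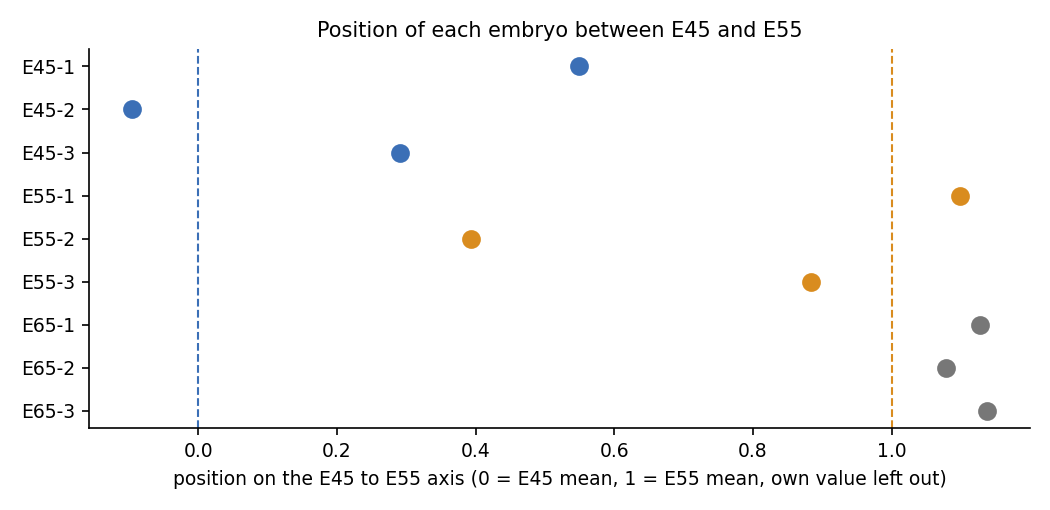
Position of each of the 9 embryos (rows) on the line from the E45 mean (0) to the E55 mean (1), each mean taken without the embryo plotted; points are coloured by stage. E45-1 is at 0.549 and E55-2 at 0.393, each on a line drawn without its own values. The E65 embryos, on the line through the full means, have positions close to that of E55-1.

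A small group of genes, very abundant in some embryos, differed widely between the libraries. Among the genes that averaged 100 RPKM or more, 13 had a log2 fold change of -2 or lower in E55 vs. E45 and yet did not pass the test, and 4 had one of 2 or higher and did not pass. The median of the 13 lower genes was 728 RPKM in E45-1, 184 in E45-2 and 31.4 in E45-3. At E55 it was 515 RPKM in E55-2, against 0.350 in E55-1 and 2.56 in E55-3. In 12 of the 13 genes the E45 and E55 values overlapped. Together these 13 genes made up 7.51% of the summed RPKM of E45-1 and 4.62% of that of E55-2, while E45-2 had 1.47%, E45-3 0.326%, and E55-1 and E55-3 0.00611% and 0.0104%. The E65 embryos had 0.00523% to 0.00869%. The standard error of the log2 fold change of the 13 genes had a median of 2.60, and their adjusted p ran from 0.0864 to 0.458. Because genes that passed were left out, the overlap, the standard errors and the adjusted p largely restate the choice. None of the 13 exceeded 25.8 RPKM in E55-1, E55-3 or the E65 embryos, so they averaged 100 RPKM or more only through the other libraries. They were picked after their values had been seen, and nothing is read from their split between libraries. Their part in the results below was not tested.

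The genes that did pass the test were few. DEGs were called with limma on log2(RPKM + 0.1) at an adjusted p under 0.05 (Benjamini-Hochberg) and a change of 1 or more on the log2 scale in either direction, and 66 genes increased and 82 decreased from E45 to E55. This was 0.891% of the genes tested, 0.397% up and 0.494% down. The study reports far more genes for this comparison, most of them decreased, with edgeR at the same thresholds. Whether the test, the unit of the values or the filter accounts for the difference was not tested. In a tissue of mixed cells, fewer cells of a type and less RNA per cell cannot be told apart, so an increase or a decrease is of the RNA in the sample. The log2 fold changes of the increased genes ran from 1.004 to 8.40 with a median of 1.83, and those of the decreased genes from -5.90 to -1.003 with a median of -2.24. A change of at least 3 on the log2 scale was seen in 19 increased and 19 decreased genes. In all 66 increased and all 82 decreased genes the 3 values of E45 did not overlap with the 3 of E55, as in 21.2% of all tested genes. The DEGs were called on these same values, so nothing is read from this count.

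Most large differences between the stage means did not pass. Of 2417 genes (14.6%) with a |log2 fold change| of at least 1, 1851 lower and 566 higher at E55, 2269 were not called. Among them were 55 genes that were lower by at least 4 on the log2 scale, and no gene that was higher by as much. The smallest adjusted p was 0.0150, shared by 6 genes, so the calls lay close to the threshold. At an adjusted p under 0.1 and the same fold change, 570 genes would have been counted. Without adjustment 3075 genes (18.5%) had a p under 0.05, of which 2174 (13.1% of those tested) were lower and 901 (5.43%) higher at E55. The median standard error of a log2 fold change was 0.25 over all tested genes and 0.35 over the 148 DEGs.

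**Figure D2:**
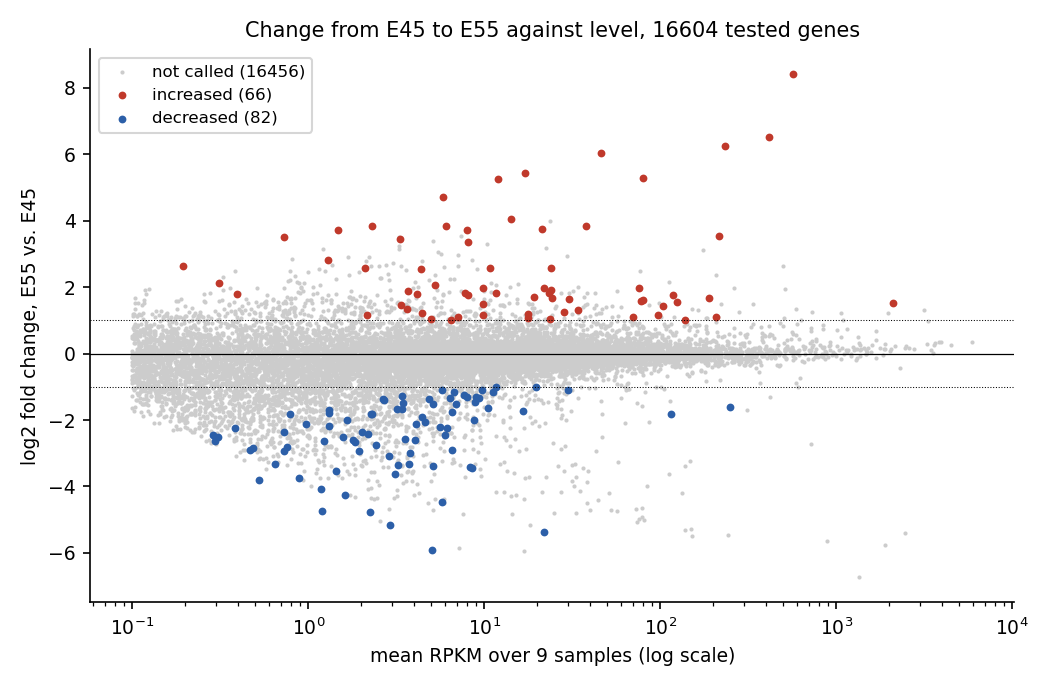
Log2 fold change in E55 vs. E45 (y axis) against the mean RPKM over the 9 samples (x axis, log scale) for each of the 16604 tested genes; red points are the 66 increased and blue points the 82 decreased genes, and dotted lines mark a change of 1. The 13 abundant genes described above, with changes of -2 or lower, are among the grey points at the lower right.

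The number of DEGs changed widely when 1 embryo was left out of the fit, and the reason was not tested. With each embryo left out of the limma fit in turn, the number called was 1213 without E45-1, 0 without E45-2, 13 without E45-3, 4 without E55-1, 258 without E55-2 and 75 without E55-3. Leaving out an embryo of E65, which enters only through the common estimate of the spread, gave 9 without E65-1, 52 without E65-2 and 17 without E65-3. Where none was called, 2373 genes still had an unadjusted p under 0.05 and the smallest adjusted p was 0.0651. Of the 148 DEGs, 144 were among the 1213 without E45-1 and 110 among the 258 without E55-2. The 1213 genes were 1069 decreased and 144 increased, so that omitting E45-1 added mostly decreased genes. Over the 19 other settings tried, a DEG was called in a median of 9, and 9 of the 148 were called in at least 15.

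**Figure D3:**
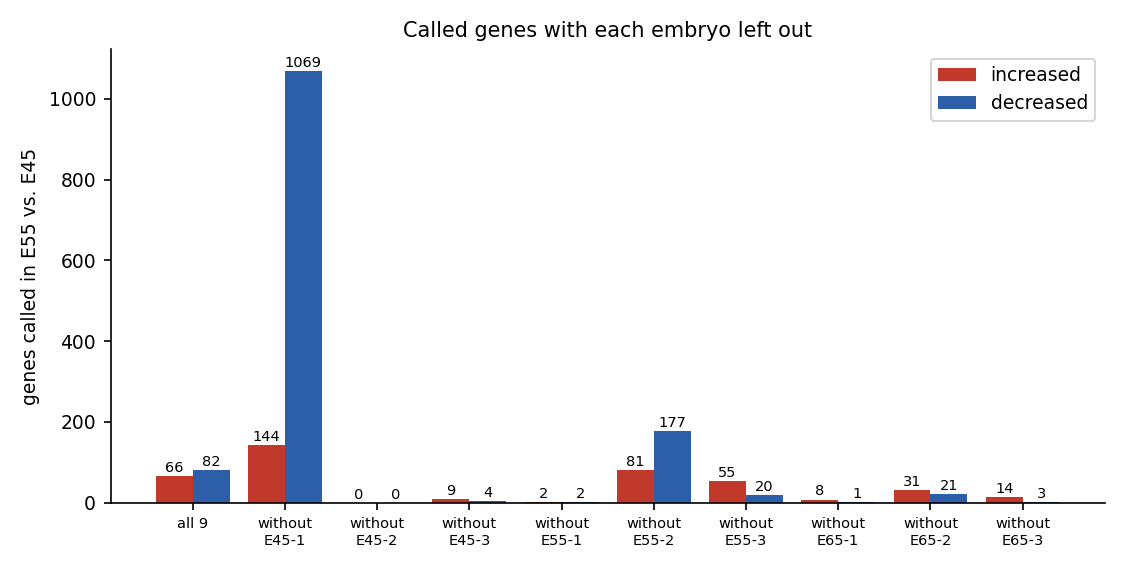
Number of genes called increased (red) and decreased (blue) in E55 vs. E45 with all 9 embryos and with each embryo left out in turn. The bars run from 0 without E45-2 to 144 increased and 1069 decreased genes without E45-1.

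The split between directions depended on the scaling between samples. Decreased genes were 55.4% of the DEGs on the values as deposited, 34.1% after the median of each sample had been set equal and 27.4% after quantile normalization. Over all tested genes the log2 fold change had a median of -0.12 as deposited and of 0.08 and 0.03 after these scalings. Genes whose 3 values at E45 all lay below or all above those at E55 moved in the same manner. As deposited, 1182 genes (7.12%) were higher at E55 without overlap and 2341 (14.1%) lower. After median scaling these were 2969 and 1278, and after quantile normalization 2427 and 1300.

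The genes named next are those with the largest changes among the DEGs that averaged 1 RPKM or more and had no overlap between E45 and E55, and some genes that were not called had larger falls. The increased gene with the largest change was listed as goat_GLEAN_10004749_gene on chromosome 19. It had 0.36, 0.05 and 2.57 RPKM in E45-1, E45-2 and E45-3, and 490.38, 263.59 and 54.73 RPKM in E55-1, E55-2 and E55-3. It was low in every E45 embryo and abundant in every E55 embryo, and its lowest E55 value was far above its highest E45 value. The means were 0.993 ± 1.37 RPKM (SD, n = 3) and 270 ± 218 (SD, n = 3), and limma gave a log2 fold change of 8.40 ± 1.05 (SE) at an adjusted p of 0.0272. At E65 its mean was 1425 ± 652 RPKM (SD, n = 3). In the 19 other settings its adjusted p lay between 0.00500 and 0.101. The call was lost without E45-2, E55-1 or E65-1 and with only the 6 samples of E45 and E55 in the fit. The log2 fold change ran from 6.81 with 1 added before the logarithm to 9.51 without E45-3.

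The second was listed as GOAT_ENSP00000225550-D12_gene, also on chromosome 19. Its values were 6.20, 1.18 and 9.55 RPKM at E45 and 1031.65, 374.69 and 151.90 RPKM at E55, in the order of the embryo numbers. Again E55-1 was the highest and E55-3 the lowest of the E55 embryos. The mean went from 5.64 ± 4.21 (SD, n = 3) to 519 ± 457 RPKM (SD, n = 3), or 6.51 ± 1.02 (SE) as log2 fold change in limma at an adjusted p of 0.0389. At E65 the embryos had 1243.84, 762.53 and 130.80 RPKM, a spread that covered the E55 values. In the other settings the adjusted p lay between 0.00979 and 0.118 and passed in 12 of 19. The call was lost without E45-2, E45-3, E55-1, E65-1 or E65-2, with robust eBayes and with 6 samples only. The log2 fold change ran from 5.64 without E45-2 to 7.19 without E55-3.

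With 0.1 added before the logarithm, the largest fall among the decreased DEGs was that of a gene listed as GOAT_ENSP00000324701_gene on chromosome 17. It had 5.15, 19.35 and 20.48 RPKM in the E45 embryos and 0.00, 0.39 and 0.10 RPKM in the E55 embryos. E45-1 was the lowest of its stage, yet well above every E55 embryo. The mean fell from 14.99 ± 8.54 (SD, n = 3) to 0.163 ± 0.203 RPKM (SD, n = 3), and limma put the log2 fold change at -5.90 ± 0.67 (SE) and the adjusted p at 0.0171. At E65 it was listed at 0 in 2 embryos and at 0.04 RPKM in E65-3. The call was lost in 5 of the 19 other settings, without E45-2, E45-3, E55-1 or E65-1 and with 6 samples only. The adjusted p ran from 0.000798 to 0.0988. The log2 fold change ran from -7.38 with 0.01 added before the logarithm to -3.59 with 1 added. With 1 added, the fall of GOAT_ENSBTAP00000023744_gene, described next, was the larger, at -4.40.

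The next largest fall among these DEGs was that of GOAT_ENSBTAP00000023744_gene on chromosome 5. Its E45 embryos differed widely, with 7.21, 47.13 and 135.39 RPKM, while the E55 embryos had 0.48, 0.72 and 1.27 RPKM. The mean was 63.2 ± 65.6 RPKM (SD, n = 3) at E45 and 0.823 ± 0.405 (SD, n = 3) at E55, and the log2 fold change from limma was -5.38 ± 0.87 (SE) at an adjusted p of 0.0393. At E65 its mean was 1.47 ± 0.551 RPKM (SD, n = 3), above the E55 mean and far below the E45 mean. Its adjusted p ran from 0.000557 to 0.133. The call was lost in 8 of the 19 settings, without E45-2, E45-3, E55-1, E55-3 or any of the E65 embryos and with 6 samples only. The log2 fold change ran from -6.53 without E45-1 to -4.40 with 1 added before the logarithm. It was -4.42 without E45-3.

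**Figure D4:**
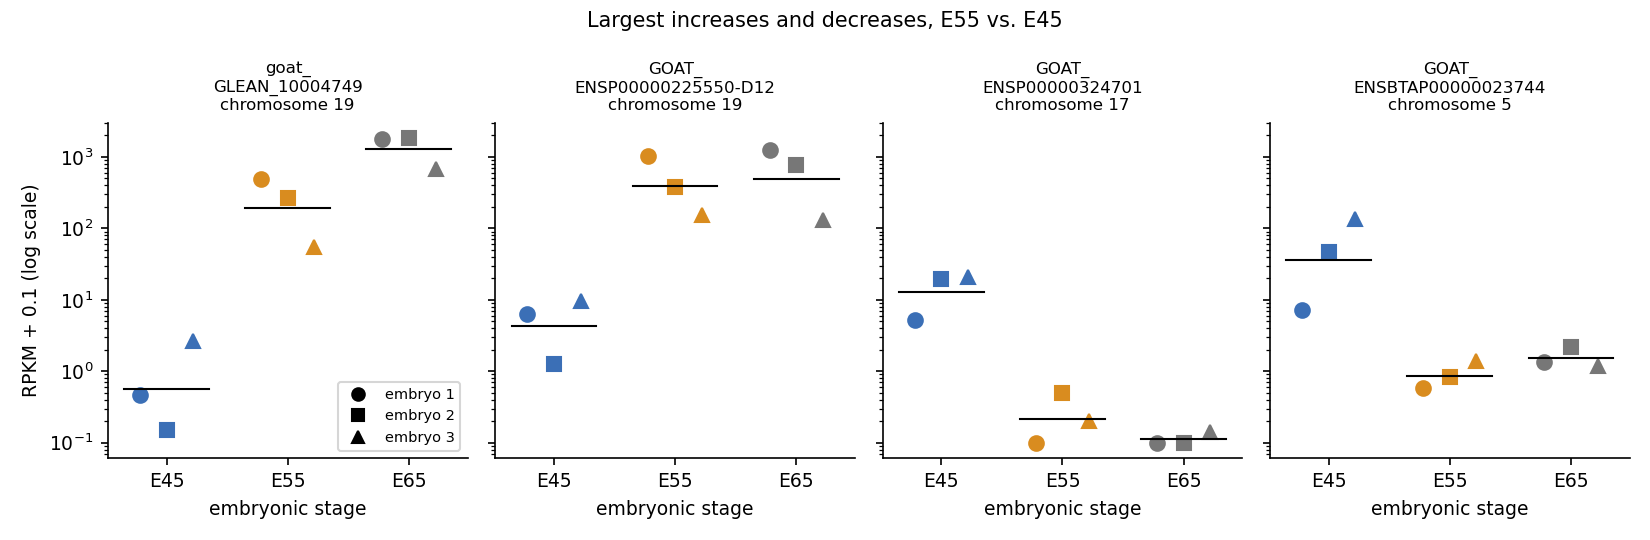
RPKM + 0.1 (log scale) of the genes with the 2 largest increases and the 2 largest decreases among DEGs without overlap between E45 and E55, by stage; each point is an embryo, its shape gives the number of the embryo, and the line is the mean on the log scale. The genes were chosen for the lack of overlap between E45 and E55, and in GOAT_ENSBTAP00000023744_gene the E45 points run from 7.21 to 135.39 RPKM.

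The order of the embryos within a stage was also counted among all DEGs, the named genes included. Of the 66 increased genes, E55-1 was the highest E55 embryo in 53, E55-3 in 13 and E55-2 in 0. Over all tested genes, E55-1 was the highest of the 6 embryos in 17.2%, E55-3 in 9.75% and E55-2 in 6.70%. Of the 82 decreased genes, E45-1 was the lowest E45 embryo in 62 and E45-3 the highest in 52, while E55-1 was the lowest E55 embryo in 51. Over all tested genes, E45-1 was the lowest of the 6 embryos in 25.3% and E55-1 in 16.3%. E45-3 was the highest of the 6 in 17.9%. These shares over all genes compare the 6 embryos and not those of 1 stage. Shares within a stage over all tested genes were not computed. Nothing is therefore read from the order of the embryos, here or in the genes with large changes below. In the 19 increased DEGs with a change of at least 3, E55-1 was the highest in 18. Their median was 0.36 RPKM in E45-1, 0.16 in E45-2 and 0.60 in E45-3, and 20.4 in E55-1, 11.6 in E55-2 and 5.59 in E55-3. All 19 had at least 1 RPKM in E55-1, as did 18 in E55-2 and 18 in E55-3, against 3 to 7 in the E45 embryos. These genes lay on 12 chromosomes.

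In the 19 decreased DEGs with a change of at least 3, E45-1 was the lowest E45 embryo in 15. The median of these 19 DEGs was 3.81 RPKM in E45-1, 9.69 in E45-2 and 7.71 in E45-3. At E55 it was 0.24, 0.34 and 0.22 RPKM in E55-1, E55-2 and E55-3. They lay on 16 chromosomes. Of them 5 were listed at 0 in E55-1, 2 in E55-2 and 2 in E55-3.

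The DEGs were a small part of the RNA. The 66 increased genes made up 0.245%, 0.304% and 0.269% of the summed RPKM of E45-1, E45-2 and E45-3, and 1.52%, 0.819% and 0.739% of that of E55-1, E55-2 and E55-3. Their median rose from between 2.42 and 3.45 RPKM in the E45 embryos to between 13.05 and 19.8 in the E55 embryos. The highest of them had a stage mean of 759 RPKM at E45 and 2216 at E55, and 12 had a mean of at least 100 RPKM at E55, compared with 1 at E45. The 82 decreased genes made up 0.241% to 0.313% at E45 and 0.0645% to 0.0919% at E55. Their median stage mean was 7.41 RPKM at E45, a level close to the 6.88 to 8.20 RPKM that was the median of all tested genes in the E45 embryos, and 1.07 RPKM at E55. These values describe genes that were chosen by the same comparison.

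The E65 embryos were not used to choose the direction of the DEGs, although they entered the common spread. The increased genes had medians of 19.3, 21.97 and 17.4 RPKM in E65-1, E65-2 and E65-3, close to the 19.8 of E55-1 and above the other E55 embryos. Their mean at E65 was at or above the mean at E55 in 42 genes, between the 2 earlier means in 22, and at or below the E45 mean in 2. The decreased genes had medians of 1.02, 0.990 and 0.695 RPKM at E65, where E65-3 lay below the lowest E55 median of 0.830 and the other two lay within the E55 range. Their E65 mean was at or below the E55 mean in 51 genes, between the means in 30 and at or above the E45 mean in 1. Since both steps use the E55 embryos, these counts are a description.

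**Figure D5:**
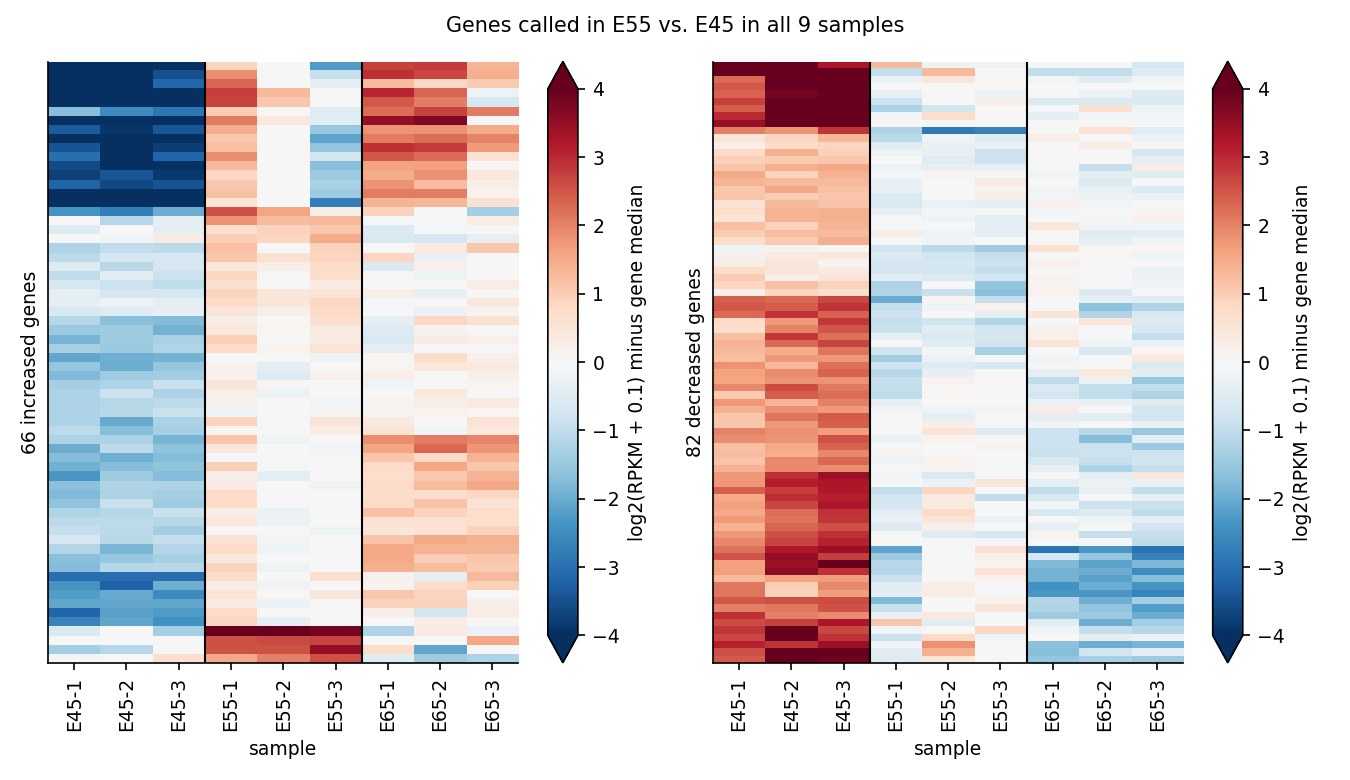
Log2(RPKM + 0.1) minus the median of each gene for the 66 increased (left) and 82 decreased (right) genes (rows, ordered by average linkage) in the 9 samples (columns); colours stop at 4 in either direction. E45 stands apart in most rows, while a few increased genes are high in the E55 embryos and low again at E65.

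Whether a gene changed differently in the 2 steps was tested directly, as the change from E55 to E65 minus that from E45 to E55. This difference passed (adjusted p under 0.05 from limma and at least 1 on the log2 scale) in 44 genes, 0.265% of those tested. It was negative in 21 genes (0.126%), whose E55 mean was above both others in all 21. Their median was 14.8, 12.1 and 14.6 RPKM in the E45 embryos, 27.2, 27.8 and 31.9 in the E55 embryos, and 7.53, 3.30 and 6.14 at E65. It was positive in 23 genes (0.139%), of which 21 had their lowest mean at E55. The median of the 23 was 11.2, 12.2 and 13.1 RPKM at E45, 5.93, 5.79 and 6.81 at E55, and 20.5, 23.2 and 19.0 at E65. Since the difference sets E55 against the other 2 stages, these counts and medians largely restate the choice of the genes. The number of these genes was unstable. It was 1 after quantile normalization, and 897 without E45-1, 22 without E55-1, 3 without E65-3, 2 without E45-3, 1 without E45-2, E55-2, E65-1 or E65-2, and 0 without E55-3, where 1353 genes had an unadjusted p under 0.05.

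The direction of change differed between classes of level, where 0.397% of all tested genes increased and 0.494% decreased, and 7.12% were higher and 14.1% lower without overlap. Among the 3314 tested genes with a mean RPKM below 1, the median log2 fold change was -0.36, and 4 genes increased and 14 decreased (0.543% called). The 6167 genes from 1 to 10 RPKM had a median of -0.19, with 25 increased and 59 decreased (1.36%). From 10 to 100 RPKM the median of the 6187 genes was -0.07, and 26 increased while 7 decreased (0.533%). At 100 RPKM and above, 936 genes had a median of 0.02, with 11 increased and 2 decreased (1.39%). The share of genes without overlap between the stages also differed by level, and the lower share was highest from 1 to 10 RPKM and not in the lowest class. Lower at E55 were 15.4%, 17.98%, 11.04% and 4.27% of the genes in the 4 classes, from low to high, and higher were 5.04%, 6.41%, 7.69% and 15.4%.

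Embryo by embryo the order of the classes held in part. In 2 of the 9 pairs, E55-2 against E45-1 and against E45-3, the median was lowest from 1 to 10 RPKM (-0.08 and -0.14) and not below 1 RPKM (-0.05 and -0.09). For the genes below 1 RPKM the median difference was below 0 in all 9 pairs of an E55 and an E45 embryo, from -0.68 to -0.05, and for those of 100 RPKM and above it was below 0 in 4 of 9 pairs. The pairs share embryos and are not independent. Leaving out each E45 or E55 embryo kept the median of the low class between -0.44 and -0.27. Median scaling moves all classes by about the same amount, and so cannot test the differences between them. It put the low class at -0.16 and the classes from 10 to 100 RPKM and above at 0.13 and 0.22. Quantile normalization, which gives all samples the same distribution, reversed the order, with 0.10 in the lowest class and -0.03 in the highest. The median of the lowest class also depended on the constant added before the logarithm. It was -0.50 with 0.01 and -0.11 with 1, where the class from 1 to 10 RPKM was lower, at -0.16.

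E45-2 carried the broadest set of genes. It had the highest of the 6 values in 5447 tested genes (32.8%) and the lowest in 1342 (8.08%). E45-1 had the highest in 15.6% and the lowest in 25.3%, and E55-3 the highest in 9.75% and the lowest in 21.1%. Genes with an RPKM of at least 1 numbered 13027, 13688 and 13233 in E45-1, E45-2 and E45-3, and 12643, 13043 and 12461 in E55-1, E55-2 and E55-3. The stages overlapped, since E55-2 had more of these genes than E45-1. The mean was 13316 ± 338 (SD, n = 3) at E45 and 12715.7 ± 298 (SD, n = 3) at E55, a difference of -600.3 genes that the exact two-sided permutation test did not separate (p = 0.2, where 3 against 3 cannot go below 0.1). The 100 most abundant genes of a library held 26.9% ± 2.57 (SD, n = 3) of its summed RPKM at E45 and 29.6% ± 0.631 (SD, n = 3) at E55 (exact permutation test, p = 0.2). E45-1, at 29.6%, was within the E55 range of 28.9% to 29.97%. For the 1000 most abundant genes the shares did not overlap, with 58.9% to 62.6% at E45 and 62.99% to 64.4% at E55, a difference of 3.03 percentage points at the smallest p that this exact permutation test allows (p = 0.1).

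The spread between embryos differed between the stages. The median SD of log2(RPKM + 0.1) within a stage was 0.30 at E45, 0.24 at E55 and 0.23 at E65. An SD above 1 was found in 1835 genes (11.1%) at E45, in 1280 (7.71%) at E55 and in 653 (3.93%) at E65. Each stage has 3 embryos, and no test was made of this order.

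Some genes were listed at 0 throughout a stage. There were 8 genes at 0 in all E45 embryos and at 0.1 RPKM or more in all E55 embryos, with 1.27 RPKM as the highest E55 value. Of these 7 were tested and 3 were called increased, against 0.397% of all tested genes. The reverse held for 13 genes, whose highest E45 value was 7.71 RPKM, and 8 of these were tested and 2 called decreased, against 0.494%. Both sets were chosen for a lack of overlap, so nothing is read from these counts. At E65, 8 of the 13 were again listed at 0 in every embryo, but none of the 8 genes that came on. The number of reads behind a listed 0 is unknown, and no fold change is given for these genes.

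The DEGs were spread over the genome. The median log2 fold change of a chromosome lay between -0.17 and -0.07 on all 30 chromosomes. The share of genes called ran from 0 of 593 on chromosome 13 to 2.17% of 276 on chromosome 24, against 0.891% of all tested genes, and no test was made of these differences. Chromosome 3 had 8 increased and 6 decreased of 964 tested genes, or 1.45%. On chromosome 19, which holds the genes with the 2 largest increases, 4 of 968 genes increased and 0 decreased. The increased share, 0.413%, was close to the 0.397% of all tested genes. The X chromosome had 1 increased and 2 decreased of 559 genes, or 0.537% against 0.904% on the autosomes. Both increased and decreased genes were found on 20 chromosomes. The order of the genes along a chromosome is not given, so neighbours could not be compared.

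The DEGs were also found among all kinds of gene model. Models with ENSBTAP in the identifier (7431 tested) had 35 increased and 39 decreased genes, or 0.996%. Those with ENSP (7112) had 26 increased and 33 decreased genes, or 0.830%, and the GLEAN models (2061) had 5 and 10, or 0.728%. Their median log2 fold changes were -0.11, -0.12 and -0.12. The 398 tested genes with a D and a number at the end of the identifier had 3 increased and 5 decreased genes, or 2.01%. Identifiers that differ only in this ending may be near-identical copies that share reads, and because reads with several locations were discarded their values are uncertain. Of the 212 tested genes with such a partner among the listed genes, 1 was called (increased), or 0.472% against 0.891% of all tested genes, a difference too small in number to read.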

How the data were processed

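According to the study's methods, the authors used the FASTX-Toolkit (version 0.0.13) to filter reads and TopHat to align them to the goat genome, and discarded reads with more than 1 location. The genome build is not given in the sources used here. The deposited values are RPKM per gene (called FPKM in the methods), rounded to 2 decimals, in 1 column per embryo. All per-sample columns of this table were used, and the small RNA pools were not used here. The sum of RPKM per sample ran from 537791 to 561954 over the E45 and E55 embryos. Read counts could not be recovered: of 2765 low genes, 5.06% could be turned into whole reads (tolerance 0.1) at some gene length in all 9 samples. Depth is therefore not known per value, and no counting error is given.

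Genes that averaged 0.1 RPKM or more were fitted as log2(RPKM + 0.1) by stage alone, in 1 fit of all 9 samples that used the mean-variance trend (limma 3.58.1, R 4.3.3). Because of the added 0.1, the fold changes of low genes are too small. The code was tested on simulated data. Single values per sample were compared with an exact permutation test. The genes named were those with the 2 largest increases and the 2 largest decreases among the DEGs that averaged 1 RPKM or more and whose E45 and E55 values did not overlap. The comparison, groups of genes, tests and alternatives were chosen with earlier results of these data known. The alternatives were other pseudocounts, filters, scalings, samples, weights, eBayes settings, a replicate block and each embryo left out. The prepared lists of marker and pathway genes were not used, as no identifier matched a symbol.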

Additional observations from a re-analysis of the deposited data

How the results depend on the processing

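The number of DEGs, 148, was 98 when no filter was applied, 258 with median scaling, 1087 with sample weights and 1 with only the 6 samples of E45 and E55 in the fit. The decreased share, 55.4%, became 34.1% with median scaling, 27.4% with quantile normalization, 85.5% with sample weights and 0% with the 6 samples. The 44 genes whose change differed between the steps became 70 with pseudocount 1, 331 with sample weights and 1 with quantile normalization. With each of the 9 embryos left out in turn, the number of DEGs ran from 0 to 1213, the decreased share from 11.1% to 88.1% (8 fits, as 1 gave no DEG) and the genes that differed between the steps from 0 to 897. The cause of these changes was not tested, except that a fit of 6 samples has fewer samples by construction.

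With the replicate number as a block, 98 DEGs were found, 44.9% of them decreased, and 70 were shared with the 148. Nothing in the labels but the number links embryos numbered alike. Their deviations from the stage means correlated at -0.30 to 0.41 over 9 pairs. Between E45 and E55 embryos numbered differently the correlations ran from -0.53 (E45-3 and E55-2) to 0.47 (E45-1 and E55-2). Deviations within a stage sum to 0 for each gene, so these values are not independent.

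Over all tested genes the median log2 fold change became 0.0790 with median scaling and 0.0304 with quantile normalization, and ran from -0.16 to -0.06 with 1 embryo left out. Genes without overlap became 2969 higher and 1278 lower at E55 with median scaling, and 2427 and 1300 with quantile normalization. The difference in the number of genes with an RPKM of at least 1 became -281.3 for an RPKM above 0, and ran from -764 to -414 with 1 embryo left out. That in the share of the most abundant genes was 0.438 percentage points for 10 genes and 3.03 for 1000 genes in place of 100 (2.74), and ran from 1.61 to 4.14 with 1 embryo left out. For the 4 named genes 24 values were no longer called and 0 changed direction, and 6 medians of the classes by level, whose alternatives were chosen after seeing the data, moved by more than the spread between pairs of embryos. The depth behind each value is unknown, so low RPKM values cannot be given a counting error.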
